A study of Mus musculus with 14 samples.

Results

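The genes described here encode 10 regulators of alternative splicing that act in the nervous system: Nova2, Ptbp1, Ptbp2, Rbfox3 (listed under its older symbol D11Bwg0517e), Mbnl1, Mbnl2, Elavl2, Elavl3, Elavl4 and Qk. They were taken by symbol from 19215 genes in the RNA-seq tables, whatever their values, and their cassette exons were taken by gene identifier, which gave 22 of 13189 exon entries, for 20 distinct exons in 8 of the genes. A cassette exon is one that can be kept in the mRNA or skipped as a unit. All 10 genes were also sought among the RNAs bound by NOVA.

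RNA-binding proteins of this kind sit near alternative exons and promote or block their use, with the outcome often set by whether they bind before, within or after the exon. NOVA2 is a neuronal protein that binds clusters of YCAY, where Y is C or T. PTBP1 represses neural exons in many non-neuronal cells and gives way to its paralog PTBP2 as neurons form. RBFOX3 is the neuronal antigen NeuN, MBNL1 and MBNL2 promote adult splicing patterns and are sequestered in myotonic dystrophy, ELAVL2, ELAVL3 and ELAVL4 are the neuronal Hu proteins, and QK (quaking) is best known from glia, where it governs RNAs of myelin. Several of these genes carry cassette exons of their own, so their RNAs are substrates of splicing control as well as sources of it.

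The study compared where NOVA binds RNA in motoneurons (MNs) and in whole spinal cord (WSC) by HITS-CLIP, in which RNA crosslinked to a protein in tissue is purified with an antibody and sequenced as short tags. MN CLIP used 3-month-old C57BL/6 mice hemizygous for Chat:GFP-Nova #6 or #17, 2 lines that carry an AcGFP-tagged Nova2 coding sequence under the Chat promoter, with 4 libraries a line, each from pooled spinal cords and antibodies to GFP. WSC CLIP used 4 wild-type C57BL/6 mice of the same age and an antiserum to NOVA, so that endogenous NOVA proteins of all cells were purified. WSC RNA-seq came from 1 male and 1 female 12-week-old B6/SJL mouse with the Tg(SOD1)2Gur/J transgene, which expresses wild-type human SOD1. The Chat promoter is active in cholinergic cells generally, and the 2 lines still express their own Nova genes. Cell class, antibody, tagged or endogenous protein and pooling all changed together between MN and WSC CLIP, and their parts cannot be told apart. A lower tag count for a gene can also come from fewer cells that express it or from less of its RNA per cell, which bulk CLIP cannot tell apart.

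MN libraries held 65961 to 871804 unique tags (median 130534) and WSC libraries 2213104 to 6095995, and the RNA-seq libraries held 72006019 (male) and 65625173 (female) reads on genes. In introns lay 53.7 to 66.8% of the gene tags of MN libraries and 34.3 to 39.5% of those of WSC libraries. Of 8 motoneuron markers, 3 had enough tags to test, and all 3 were higher in MN CLIP. The log2 changes were 2.48 for Chodl, 2.24 for Slc5a7 and 3.08 for Chat, which makes acetylcholine. The transgene lies in a bacterial artificial chromosome with the Chat promoter, so RNA from it could add to the Chat tags, which was not tested. The 6 inhibitory neuron markers and the 4 astrocyte markers that could be tested were all lower, as were 2 of the 3 oligodendrocyte markers tested, while the 1 Schwann cell marker tested was higher. The 1 excitatory interneuron marker tested, Slc17a6, was lower (log2 -3.53). Of 5 markers of all neurons that could be tested, 1 (Snap25) was higher and 4 were not called, with a median log2 change of 0.15. No marker of oligodendrocyte precursors, microglia, endothelium, blood or muscle could be tested, and the part of other cell types in the results below was not tested. MN replicates 1 and 2 of each line were built with a short 5′ barcode, and replicates 3 and 4 and every WSC library with a long one.

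Paired exons of related genes are shown first, since the values below are read exon by exon. Each pair is aligned without gaps, 5′ to 3′ on the strand of the gene, and capitals mark the bases at which the paralogs differ. The sequences were read from the NCBIM37 (mm9) mouse genome at the coordinates of the cassette exons, and all 20 exons had AG before and GT after them. The 34-nt exons of Ptbp1 (chr10:79324759-79324792, plus strand) and Ptbp2 (chr3:119427530-119427563, minus strand) matched at 26 of 34 positions (76.5%). The 54-nt exons of Mbnl1 (chr3:60418605-60418658) and Mbnl2 (chr14:120794934-120794987) matched at 46 positions (85.2%), and their 36-nt exons (chr3:60425345-60425380 and chr14:120802558-120802593, all plus strand) at 31 (86.1%). The 39-nt exons of Elavl2 (chr4:90920832-90920870) and Elavl4 (chr4:109882345-109882383), both on the minus strand, matched at 33 positions (84.6%).
Ptbp1 34 nt: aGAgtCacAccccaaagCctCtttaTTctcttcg
Ptbp2 34 nt: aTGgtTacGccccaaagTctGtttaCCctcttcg
Mbnl1 54 nt: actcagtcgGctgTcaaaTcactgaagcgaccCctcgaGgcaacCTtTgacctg
Mbnl2 54 nt: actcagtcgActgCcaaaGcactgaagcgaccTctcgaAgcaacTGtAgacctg
Mbnl1 36 nt: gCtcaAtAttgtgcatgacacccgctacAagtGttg
Mbnl2 36 nt: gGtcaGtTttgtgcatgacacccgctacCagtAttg
Elavl2 39 nt: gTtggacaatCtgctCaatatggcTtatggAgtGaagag
Elavl4 39 nt: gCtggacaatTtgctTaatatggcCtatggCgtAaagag

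The positions with the most NOVA tags are shown for 4 genes, as 30 nt around the base of deepest coverage on the gene's strand, with every YCAY (a CA with C or T on each side, sought on the gene's strand only, overlaps counted) in capitals. In Nova2 the same base of the 3′ UTR was the deepest in both groups (chr7:19548647-19548676, plus strand). In Ptbp2 the deepest MN position lay in the intron (chr3:119427661-119427690, minus strand), 113 nt before the 34-nt exon shown above. The deepest MN position of Rbfox3 was also in an intron (chr11:118730471-118730500, minus strand), and that of Mbnl2 in the 3′ UTR (chr14:120830732-120830761, plus strand).
Nova2 3′ UTR: TCATcttctaagtgactCCATCACCACcgg
Ptbp2 intron: atgatCCATgaCCACcTCACCATtctgcgg
Rbfox3 intron: aacCCACctCCATCATCACCATgaTCACcg
Mbnl2 3′ UTR: tctttcagCCATacaCCACtggTCACattt

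RNA levels were compared first, as RPKM (the read count scaled by exon length and by the reads of the library). Qk had by far the highest level of the 10 genes and Nova2 the lowest, and all were at 1 RPKM or more. Qk stood at 159 RPKM in the male and 174 in the female library (mean 166.7 ± 10.9 SD, n = 2), above 98.6% of the 19215 genes. Nova2 stood at 5.53 and 3.73 RPKM (4.63 ± 1.27), above 54.1% of genes. Of the 10 genes, 8 lay above 10.3 RPKM, the median of the 11940 genes at 1 RPKM or more, and Ptbp1 and Nova2 lay below it.

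The neuronal Hu genes did not share a level. Elavl3 was at 48.8 and 48.3 RPKM, Elavl4 at 33.1 and 38.2, and Elavl2 at 26.5 and 31.7. Elavl3 was therefore above both others in each library, and the ranges of Elavl4 and Elavl2 did not overlap either. Mbnl2 (41.8 and 48.4 RPKM) was above its paralog Mbnl1 (28.0 and 31.1) in both libraries. The difference was larger within the polypyrimidine tract-binding pair, where Ptbp2 was at 29.92 and 29.97 RPKM and Ptbp1 at 10.4 and 8.56. Rbfox3 was at 36.2 and 31.9 RPKM.

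In the order of mean RPKM, the ranges of neighbours overlapped for Elavl3 and Mbnl2, for Elavl4 and Rbfox3, for Ptbp2 and Mbnl1 and for Mbnl1 and Elavl2, so the order within those pairs was not larger than the spread between the 2 libraries. With 1 library of each sex, no difference between the sexes could be tested. Between the libraries, 6 of the genes were higher in the female and 4 in the male library, with a median log2 difference of 0.07 beside -0.01 over all genes with a read. Nova2 differed most, at -0.55 (female minus male), beyond the 0.39 that bounds 90% of genes at 1 RPKM or more. The summed level of 8 motoneuron markers was 160 RPKM in the male and 223 in the female library, that of 6 oligodendrocyte markers 7923 and 8550, and that of 2 blood markers 86.1 and 35.4, and their part in these values was not tested. Of 24 other splicing regulators listed for comparison, 20 had a value, with a median of 14.4 RPKM.

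**Figure D1:**
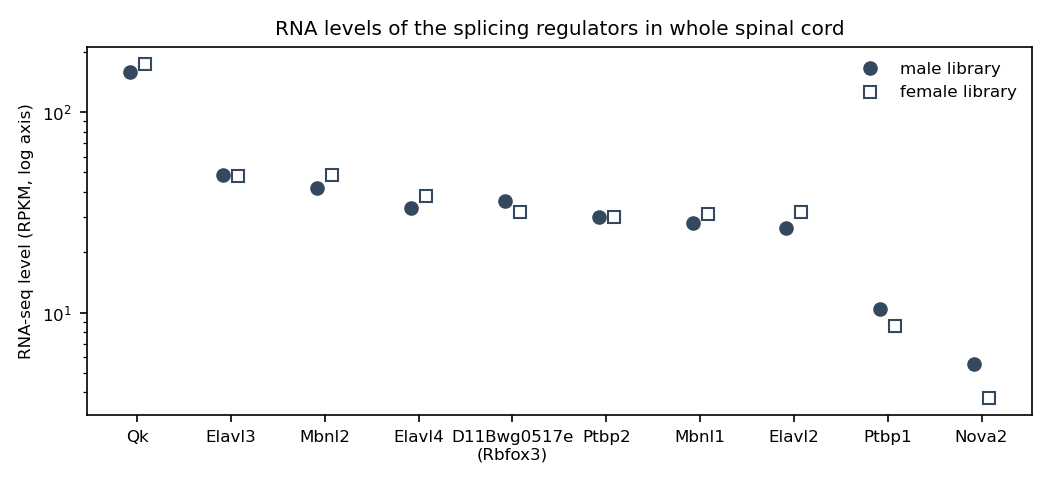
RNA level of the 10 genes in RPKM (log axis), with the male and the female WSC library as separate points. Qk sits above 150 RPKM in both libraries and Nova2 at 5.53 and 3.73, with the other genes in between.

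The cassette exons of these genes were then examined by inclusion rate, the share of mRNAs that keep the exon, estimated from reads across exon junctions. All 22 entries had at least 33 junction reads in each library. Some exons were nearly always kept, while exons of Mbnl1, Mbnl2, Ptbp1 and Elavl2 were kept in only part of the mRNAs. Of the 22 entries, 11 had a mean inclusion between 5 and 95% (beside 36.6% of the 9396 entries tested), and the median inclusion was 83.2% beside 93.5%. The exons were often short, since 10 of 22 were 60 nt or less (45.5%, beside 18.7%). By length alone, 13 of 22 would preserve a reading frame (59.1%, beside 46.3%), though some of these are not annotated as coding. These shares are descriptions of a chosen list, and exons of 1 gene are not independent.

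In the muscleblind genes the 54-nt exon, whose entries join like neighbours in both paralogs, was mostly skipped in each, with overlapping 95% Wilson intervals. These intervals cover counting error only. The 54-nt exon, which is known to help carry MBNL proteins to the nucleus, was kept in 11.9% (male, interval 7.71 to 17.9) and 13.1% (female, 8.55 to 19.6) of Mbnl1 mRNAs. The same exon was kept in 13.5% (9.87 to 18.1) and 10.9% (7.72 to 15.1) of Mbnl2 mRNAs. The entries of the 36-nt and 95-nt exons have different neighbours in the 2 genes, so their rates are given side by side and are not like for like. The 36-nt entry had a rate of 62.4% (53.3 to 70.8) and 63.1% (53.8 to 71.6) in Mbnl1, where it passes over the 95-nt exon, and of 53.9% (43.2 to 64.3) and 43.2% (32.8 to 54.3) in Mbnl2, where it joins the 95-nt exon. The 95-nt entry of Mbnl1, at 92.2 and 96.0%, starts from the 36-nt exon. Its first inclusion junction (66 and 53 reads) and its skipping junction thus cover only mRNAs that kept that exon. Its second inclusion junction (124 and 139 reads) can also come from mRNAs that skipped the 36-nt exon. The 95-nt entry of Mbnl2, at 16.3 and 20.2%, starts from the exon before the 36-nt one.

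The value of the Mbnl1 36-nt exon depended on the junction read. Its first junction had 135 reads in the male and 133 in the female library and its second 8 and 4, so the rate was 75.8 and 76.9% by the first junction and 15.7 and 9.09% by the second. An entry describes the exon with 1 particular neighbour on each side, and the 95-nt exon lies between the 36-nt exon and the neighbour of that entry. Other muscleblind exons were a 223-nt exon of the Mbnl1 5′ UTR, kept at 67.3 and 78.4%, and a 111-nt Mbnl1 exon not annotated as coding, kept at 23.96 and 17.89%. The 223-nt entry rested on only 41 and 33 junction reads.

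In Ptbp1 and Ptbp2 the paralogous 34-nt exon was mostly kept in both genes. Skipping of this exon shifts the reading frame, and in Ptbp2 it is a known target of repression by PTBP1. It was kept in 94.4% (81.6 to 98.4) and 92.7% (77.0 to 97.98) of Ptbp1 mRNAs and in 99.4% (96.7 to 99.9) and 97.2% (92.9 to 98.9) of Ptbp2 mRNAs. The intervals of the paralogs overlapped in each library. A 78-nt coding exon of Ptbp1, which preserves the frame, was kept at 54.4% (36.7 to 71.0) and 45.1% (27.7 to 63.8), wide intervals that came from 44 and 37 junction reads.

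Among the Hu genes, the 39-nt exon shared by Elavl2 and Elavl4 was nearly always kept, at 96.7% or more in each entry and library. A 91-nt exon of the Elavl2 5′ UTR was kept at 66.9 and 66.7% when joined to 1 upstream exon, and at 100% in another entry that joins the same exon to a different upstream exon. The upstream junction of that other entry had only 3 (male) and 13 (female) reads. Its downstream junction (55 and 86 reads) is shared by both entries. The remaining entries were near the ends of the range. Those of Qk (117 nt) and Rbfox3 (93 nt) were at 99.4% or more, a 31-nt and a 196-nt entry of Ptbp1 that share their 3′ end were listed at 100%, a 93-nt exon of Mbnl2 was at 1.02 and 1.89%, and a 117-nt exon of Ptbp1 had no inclusion junction read among 118 and 64, with upper Wilson limits of 3.15 and 5.66%. The 100% of the 196-nt entry came wholly from its second junction (118 and 64 reads), which it shares with the 31-nt entry. Its first junction had 0 reads in both libraries, against 150 and 89 for that of the 31-nt entry.

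Inclusion was also compared between the libraries. None of the 22 entries passed Fisher's exact test of the female against the male library (two-sided, Benjamini-Hochberg FDR of 0.1), beside 400 of the 9396 entries tested (4.26%). At an unadjusted p under 0.05 there were 2 of 22 (12.3% of all entries), the 39-nt exon of Elavl4 (exact p = 0.00758, adjusted 0.141) and the 54-nt exon of Mbnl2 (exact p = 0.00594, adjusted 0.122). The counts of the Mbnl2 test include reads in the exon body, 25 in the male and 2 in the female library, and Fisher's exact test on junction reads alone gave adjusted p of 0.955 for it and 0.158 for Elavl4. The test compares these 2 libraries and not the sexes.

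**Figure D2:**
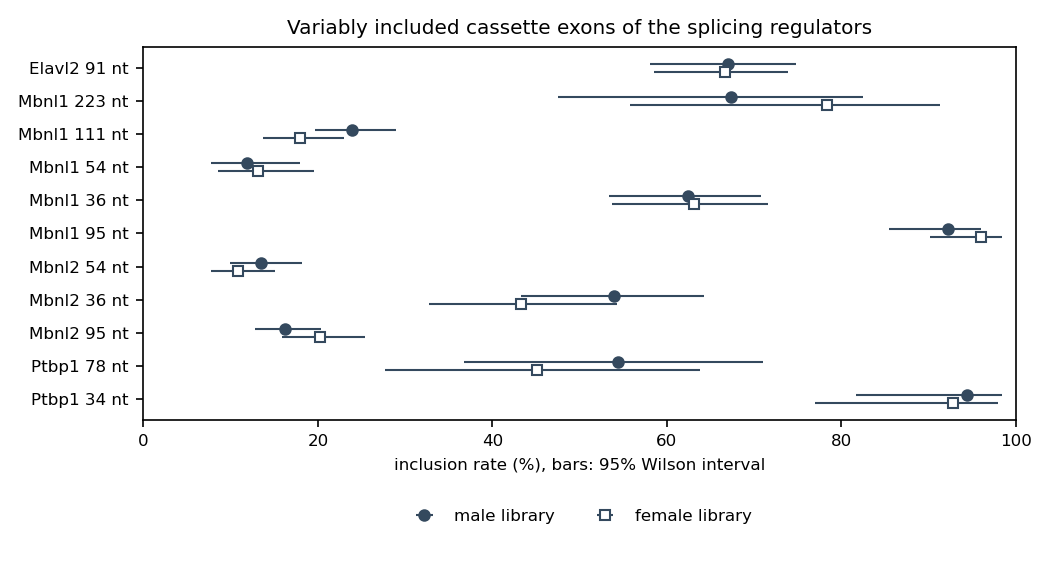
Inclusion rate in percent of the 11 cassette exon entries with a mean between 5 and 95%, with points for the male and the female WSC library and bars for 95% Wilson intervals. The 54-nt exons of Mbnl1 and Mbnl2 lie near the low end in both libraries. The 36-nt and 95-nt entries of the 2 genes join different neighbours and are not like for like.

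NOVA tags on the genes were compared between MN and WSC CLIP by edgeR's quasi-likelihood test over 4538 genes, with same-strand tags in exons and introns counted. Of the 9 genes with enough tags, 4 were higher in MN CLIP (Elavl2, Ptbp2, Mbnl2 and Nova2), 2 were lower (Elavl3 and Mbnl1) and 3 were not called (Elavl4, Qk and Rbfox3). The background was wide, since at the same FDR of 0.01 28.1% of all genes tested were higher and 29.2% lower (57.4% either way), so the number of members called is not in itself a result about them. Their median log2 fold change was 0.03 beside -0.02 over all genes tested. Ptbp1 could not be tested, with 7 tags in the MN and 29 in the WSC libraries. Fits with exon or intron tags alone were each scaled to the tags of that class. Their changes are relative to the same class in other genes and are not parts of the change of all tags. Below, CPM is a gene's tag count per 1000000 tags on genes in the library, and it is compared within a gene only, since it is not corrected for length.

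The Hu genes diverged. Elavl2 had 482 CPM in the lowest, 598 in the median and 761 in the highest MN library, against 364, 366, 379 and 391 in the WSC libraries. All 8 MN libraries lay above all 4 WSC libraries, and the fold change was 0.88 on the log2 scale (SE 0.09, edgeR adjusted p = 2.03e-09). Elavl3 went the other way, with 14.8, 41.9 and 66.0 CPM (lowest, median, highest) in MN libraries and 151, 159, 161 and 165 in WSC libraries. Every MN library was below every WSC library, and Elavl3 was 3.05-fold lower in MN CLIP (log2 -1.61, SE 0.16, edgeR adjusted p = 1.48e-09), on only 77 MN tags in all. With exon tags alone the change was -1.60 (edgeR adjusted p = 2.51e-07, beside 24.6% of 2243 genes lower). Elavl4 had 120 to 192 CPM (median 164) in MN libraries and 160, 162, 169 and 182 in WSC libraries. The Elavl4 groups overlapped throughout, and its log2 change was 0.03 (SE 0.11, edgeR adjusted p = 0.816).

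Ptbp2 had 220 to 342 CPM (median 291) in MN libraries and 166, 174, 176 and 184 in WSC libraries. The groups did not overlap, and the log2 change was 0.73 (SE 0.11, edgeR adjusted p = 1.04e-06). Much of the Ptbp2 signal was intronic, at 90.02% of 431 MN tags and 66.5% of 2443 WSC tags. With intron tags alone, the log2 change was 0.30 (SE 0.11) and no longer called (edgeR adjusted p = 0.0272, beside 12.7% of 2714 genes higher), and its exon tags were too few to test.

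The muscleblind genes diverged too, in the direction of higher tags for Mbnl2. Mbnl2 had 1204 to 2155 CPM (median 1880) in MN libraries and 1146, 1177, 1179 and 1244 in WSC libraries. Of the 8 MN libraries 7 lay above all WSC libraries, and the log2 change was 0.71 (SE 0.11, edgeR adjusted p = 2.83e-06). Relative to the exon tags of other genes the change was 1.41 (SE 0.13, edgeR adjusted p = 1.34e-09, beside 24.3% of 2243 genes higher). Relative to the intron tags of other genes it was 0.21 (SE 0.10), with an edgeR adjusted p of 0.0874. The share of Mbnl2 tags in exons was itself not higher in MN libraries (84.7 ± 2.25%, SD, n = 8, beside 87.9 ± 0.779% in WSC, n = 4). Mbnl1 had 321 to 649 CPM (median 554) in MN libraries and 704, 719, 729 and 740 in WSC libraries. No MN library reached the lowest WSC library, but the log2 change was small (-0.32, SE 0.11, edgeR adjusted p = 0.00913). The Mbnl1 call was lost on leaving out any 1 library other than line #17 replicate 4 or WSC replicate 3. With exon tags alone, relative to the exon tags of other genes, the direction turned (0.15, edgeR adjusted p = 0.269).

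Nova2 had 92.7 to 381 CPM (median 232) in MN libraries and 146, 155, 158 and 165 in WSC libraries. Of the MN libraries 7 lay above every WSC library and 1, line #6 replicate 4, below them all, and the log2 change was 0.48 (SE 0.15, edgeR adjusted p = 0.00500). The call was lost without line #6 replicate 3, line #17 replicate 2, or WSC replicate 1, 3 or 4, with each line or the long-barcode libraries alone, without the filter on low counts, and by DESeq2. Over all alternatives its adjusted p ran from 8.27e-06 to 0.111. Nova2 was called higher both with exon tags alone (0.96, SE 0.15) and with intron tags alone (1.01, SE 0.25), with edgeR adjusted p of 8.27e-06 and 0.00180. Each class was scaled on its own, so both values can exceed the 0.48 of all tags.

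Because the transgene carries the Nova2 coding sequence, tags on Nova2 coding exons were also counted apart. They were few in both groups, with 2 of 312 Nova2 tags in MN libraries (0.641%, both in line #6 replicate 3) and 36 of 2180 in WSC libraries (1.65%). The mean share was 0.368 ± 1.04% (SD, n = 8) in MN and 1.56 ± 0.672% (SD, n = 4) in WSC libraries, a difference of -1.19 points (exact permutation test, two-sided, p = 0.0384). This difference was lost in most leave-outs (exact p from 0.00303 to 0.109) and with long-barcode libraries alone (-0.82 points, exact p = 0.314). Most Nova2 tags lay in the 3′ UTR, at 73.7% in MN and 88.5% in WSC libraries.

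Qk and Rbfox3 were not called, and their MN libraries were widely spread. Qk had 482 to 1087 CPM (median 570) in MN libraries and 784, 863, 902 and 925 in WSC libraries, with a log2 change of -0.03 (SE 0.14). Rbfox3 had 208 to 738 (median 454) against 384, 408, 411 and 412, with a log2 change of -0.01 (SE 0.16). In both genes MN libraries lay on either side of the WSC range. The long-barcode MN libraries were mostly high for Qk and low for Rbfox3, and against WSC they alone gave 0.24 for Qk and -0.29 for Rbfox3, with edgeR adjusted p of 0.0795 and 0.0460. With intron tags alone, relative to those of other genes, Qk was called higher (0.39, edgeR adjusted p = 0.00560) and Rbfox3 lower (-0.53, edgeR adjusted p = 0.00760, beside 14.2% of genes lower). Within Rbfox3, intron tags made up 84.2% of MN tags and 65.9% of WSC tags.

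**Figure D3:**
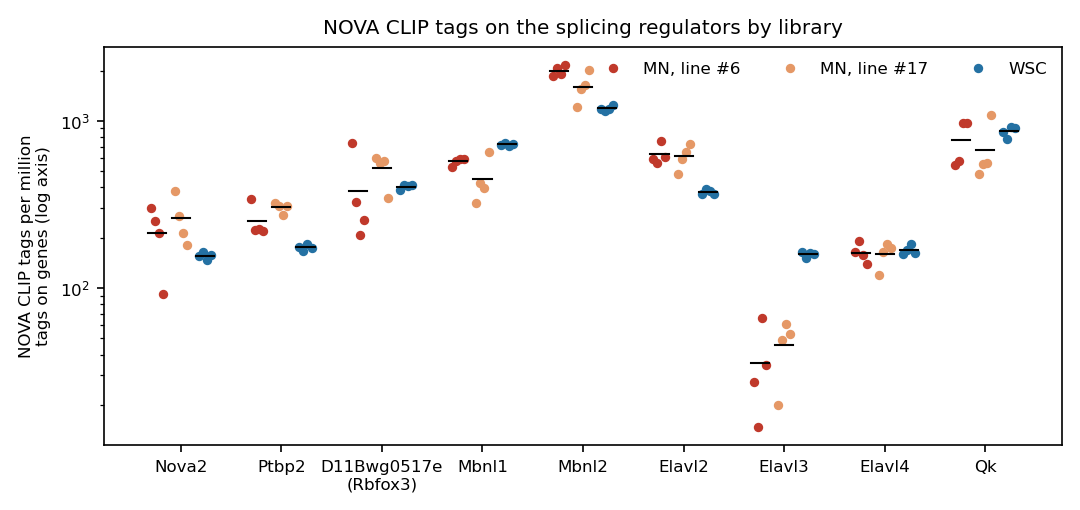
NOVA tags in CPM (log axis) for each gene except Ptbp1, with a point for each library of line #6, line #17 and WSC. The 8 MN points lie above the 4 WSC points for Elavl2 and Ptbp2 and below them for Elavl3 and Mbnl1, while Qk and Rbfox3 spread over both sides.

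The transgenic lines were compared with each other in the same way. No gene of 4538 differed between line #6 and line #17 by edgeR at an FDR of 0.01 (217 genes, 4.78%, at an unadjusted p under 0.05, and 1 gene, 0.022%, by DESeq2). Among the members, log2 differences ran from -0.52 for Rbfox3 to 0.26 for Mbnl2, and the smallest edgeR adjusted p was 0.981. The calls for Elavl2, Ptbp2, Mbnl2 and Elavl3 were made with line #6 alone and with line #17 alone, whereas those for Nova2 and Mbnl1 were made with neither.

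Of 24 other splicing regulators, 14 could be tested, and 7 were higher and 2 lower in MN CLIP, with a median log2 change of 0.35. Over all genes tested 28.1% were higher and 29.2% lower, with a median of -0.02. The largest increases were in Pcbp3 (1.64), a poly(C)-binding protein, and in Srrm3 (1.16) and Srrm4 (1.10), which promote neuronal microexons. The decreases were in Elavl1 (-0.90), the ubiquitous Hu gene, and Celf4 (-0.56).

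**Figure D4:**
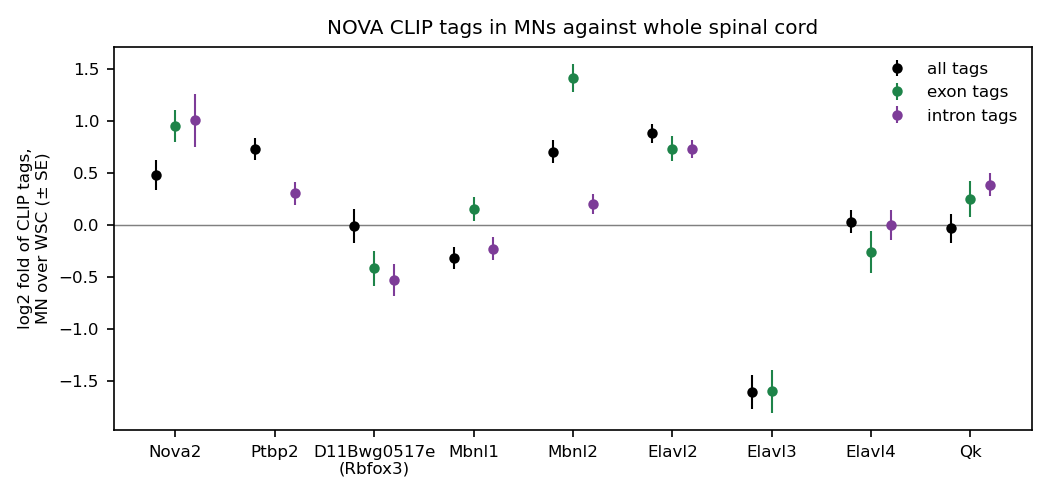
Log2 fold change of NOVA tags, MN over WSC, for the 9 genes tested, with bars for the standard error and separate marks for all tags, exon tags and intron tags. Elavl3 lies far below 0, Elavl2, Ptbp2, Mbnl2 and Nova2 above it, and Mbnl2 shows a wide gap between exon tags (1.41) and intron tags (0.21). Each tag class was scaled on its own, so exon and intron marks are not parts of the all-tag change.

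The place of the tags within each gene was described next. The exonic share, the percent of a gene's tags that lie in annotated exons, was lower in MN than in WSC libraries for all 8 genes with enough tags, and in 6 of the 8 every MN library lay below every WSC library. This held for most genes, since 57.5% of 2440 genes had every MN library below every WSC library and 94.7% had a lower mean. The median difference was -19.8 points over the members and -14.3 over all those genes. The tests of single genes below are 8 in number and unadjusted. Elavl4 fell by 38.5 points, from 59.1 ± 2.45% in WSC (SD, n = 4) to 20.5 ± 13.0% in MN libraries (SD, n = 7 with at least 10 tags, exact permutation p = 0.00303, the smallest possible). Mbnl2 changed least, with 87.9 ± 0.779% in WSC and 84.7 ± 2.25% in MN libraries (SD, n = 8, exact permutation p = 0.0222).

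Once the exonic share of all genes in the same library was subtracted, a comparison added after the data were seen, the members no longer moved together. Mbnl2 then stood 24.8 points above the library share in WSC and 45.9 in MN CLIP, a difference of 21.1 points with every MN library above every WSC library (exact permutation p = 0.00202, the smallest possible). The library share itself was 33.2 to 46.3% in MN and 60.5 to 65.7% in WSC libraries, so a gene with a steady share rises by this measure. The own share of Mbnl2 changed by -3.19 points. How many of all genes rise in this way was not counted, so the p-value does not set Mbnl2 apart. For Ptbp2 the difference was 2.82 points, for Elavl2 -1.98, for Qk -3.78 and for Elavl4 -13.1, with exact permutation p of 0.358, 0.404, 0.592 and 0.0970. Nova2, Rbfox3 and Mbnl1 differed by 6.25 to 7.40 points in the direction of Mbnl2, with p from 0.0606 to 0.176 by the same exact test.

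The deepest positions shown above held sizeable parts of each gene's signal. In Nova2, 15.7% of MN tags and 14.7% of WSC tags lay within 50 nt of the same 3′ UTR base. Those 101 nt held 10 YCAY, beside a mean of 1.82 over windows of that length in the gene, and 0.137% of windows held at least as many. The Rbfox3 intron position held 13 YCAY, a count that 0.243% of windows in its gene reached, with 7.90% of MN and 6.39% of WSC tags. The YCAY counts describe the sequence and not a site.

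Deepest positions were not always rich in YCAY, nor the same in both groups. The Mbnl2 3′ UTR position, within 3 nt in both groups, held 14.2% of MN and 14.0% of WSC tags around it and 4 YCAY in 101 nt, a count that 10.7% of windows reached. That of Mbnl1, 1 nt apart between groups, held 1 YCAY, and those of Elavl2 held 0 and 1 in 3′ UTR sequence. In Qk the positions differed. The WSC one held 7.995% of WSC and 1.69% of MN tags, and the MN one 3.52% of MN and 1.32% of WSC tags, both in the 3′ UTR. The deepest WSC position of Elavl3, also in its 3′ UTR, held 27.7% of WSC tags and 5.19% (4 tags) of MN tags. For Ptbp2, Rbfox3 and Elavl4 the deepest position was in the 3′ UTR for WSC and in an intron for MN CLIP. In Ptbp2 these positions were close in WSC CLIP, with 120 tags over the 3′ UTR base and 109 over the intron base. Within 50 nt they held 5.16 and 5.57% of WSC tags. In MN CLIP they held 1.62 and 6.26%. The Elavl4 intron position held 4.31% of MN and 2.22% of WSC tags. In Elavl3 the deepest MN position was another 3′ UTR base, with 7.79% of MN tags (6 tags) and 9.06% of WSC tags around it. Ptbp1 had too few tags to describe, with its deepest position in a coding exon for WSC (7 of 29 tags) and in an exon for MN CLIP (2 of 7 tags).

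Tags near the cassette exons were tested relative to the gene's own tags, over the exon and 400 nt on each side. Of the 20 exons 12 had enough tags. Windows were higher in MN CLIP for the 54-nt exons of both Mbnl2 and Mbnl1, the 36-nt exon of Mbnl1 and the 117-nt exon of Qk (4 of 12, beside 11.4% of 1846 windows at an FDR of 0.1), and lower for the 223-nt exon of Mbnl1 (1 of 12, beside 10.9%). The median log2 change was 1.02 over the 12 windows and -0.08 over all windows. Windows of 1 gene share its tags and are not independent.

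The Mbnl2 54-nt exon had the most MN tags of the 12 windows. Its window held 1.67 to 5.26% (median 2.35%) of the gene's tags in MN libraries and 0.672 to 1.12% in WSC libraries. All 8 MN libraries lay above all 4 WSC libraries, on 77 MN and 147 WSC tags, and the log2 change was 1.54 (SE 0.24, edgeR adjusted p = 1.60e-07). Of the MN tags 37 lay before, 7 in and 33 after the exon. The paralogous Mbnl1 window rose by 1.89 (SE 0.52, edgeR adjusted p = 0.00861) on only 11 MN and 32 WSC tags, with tags in 4 of 8 MN libraries.

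The other 2 rises rested on few tags and on line #17 replicate 4, the deepest MN library. The Mbnl1 36-nt window rose by 2.00 (SE 0.56, edgeR adjusted p = 0.0139) on 9 MN and 24 WSC tags, and the Qk window by 2.56 (SE 0.52, edgeR adjusted p = 3.41e-04) on 12 and 16. Without that library they were at 1.39 and 2.04 and not called (edgeR adjusted p = 0.372 and 0.142). When the 400 nt of each side were set against intron tags alone, an alternative added after the data were seen, the Mbnl2 54-nt (1.36, edgeR adjusted p = 0.00100) and Mbnl1 36-nt windows (1.85, edgeR adjusted p = 0.0237) were called, and the Mbnl1 54-nt window was not (1.26, edgeR adjusted p = 0.112).

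The window of the Mbnl1 223-nt 5′ UTR exon fell by 1.28 on the log2 scale (SE 0.20, edgeR adjusted p = 1.49e-07). It held 9.76 to 10.6% of Mbnl1 tags in WSC libraries and at most 5.77% in any MN library (median 3.34%). In WSC libraries 802 of its 1023 tags lay after the exon as listed, whose ends are not both annotated. Annotated exon sequence outside the coding and 3′ UTR parts held 10.2% of Mbnl1 tags in WSC and 4.78% in MN libraries. The tags after the listed exon thus need not be intronic. The exonic share of Mbnl1 as a whole also changed, by -17.9 points, and its part in the fall of this window was not tested. The 34-nt exon of Ptbp2 held a large share in both groups, since 10.7% of MN and 9.37% of WSC Ptbp2 tags lay in its window, most of them in the intron before it (37 of 46 MN tags and 187 of 229 WSC tags). That intron stretch contains the position shown above, with 7 YCAY in 101 nt, a count that 0.262% of windows in Ptbp2 reached, and with 6.26% of MN and 5.57% of WSC tags. The Ptbp2 window did not pass the test between groups (log2 0.20, SE 0.26, edgeR adjusted p = 0.644).

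**Figure D5:**
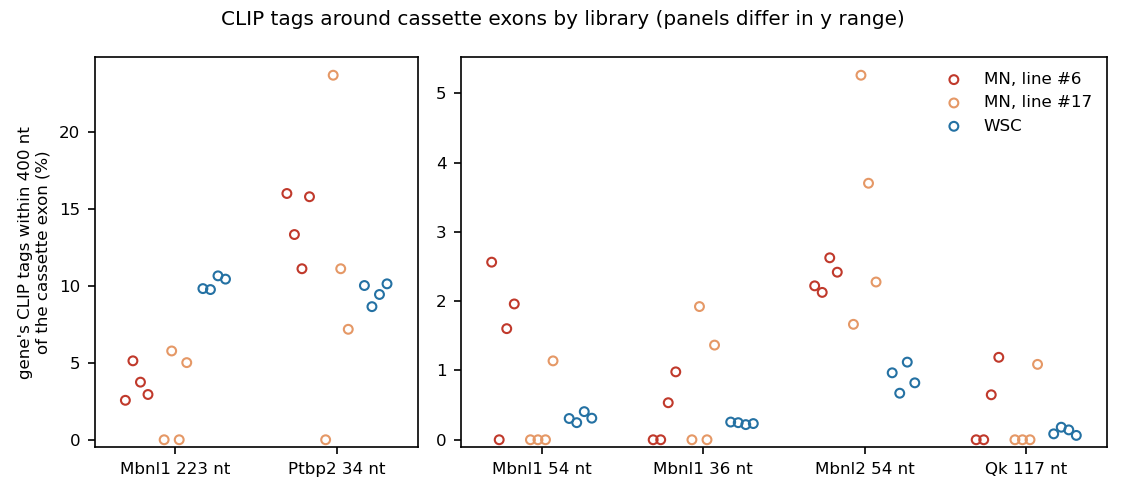
Percent of each gene's NOVA tags that lie within 400 nt of a cassette exon, with a point for each MN and WSC library and separate panels for windows with small and large shares. The Mbnl2 54-nt window is higher in every MN library (1.67 to 5.26%) than in any WSC library, and the Mbnl1 223-nt window is lower in every MN library.

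Tags were also set against RNA level in WSC, as WSC CPM divided by RPKM, a ratio that joins different animals and is not corrected for intron length, since tags in introns are counted and the RPKM covers exons. Nova2 stood at 33.7, above 96.5% of 10886 genes, whose median was 1.495. Mbnl2 (26.3) and Mbnl1 (24.5) stood above 95.3 and 94.9% of genes. Ptbp1 was at the other end at 0.206, above 18.2%. The RPKM of Nova2, its place among genes and its ratio rest on a deposited exon length of 1934 nt, while most of its WSC tags lay in the 3′ UTR (88.5%), and how another length would change them was not tested.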

How the data were processed

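The 10 genes, the comparison lists and the tests were chosen with earlier results of these data known. RNA-seq reads had been trimmed to 74 nt and mapped to mm9 with OLego by the authors, who deposited read counts per gene and per exon junction (Quantas) and RPKM, the count scaled by exon length and library size. CLIP files hold 1 line for each unique tag, mapped by the authors with Novoalign to mm9, and the score column deposited with each tag was not used. The label of 1 MN library also lists mm10, but tag coordinates pass the chromosome ends of that build, so mm9 was used throughout.

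Tags were counted by strand on GENCODE vM1 genes and on cassette exons with 400 nt of each side. Counts were tested in R 4.3.3 with edgeR 4.0.16 (quasi-likelihood, TMM, filterByExpr), with Benjamini-Hochberg adjustment over all genes or windows. For windows the offset was the gene's tags plus 0.5, and a window needed at least 20 tags in all and a tag in at least 4 libraries. The call thresholds were an FDR of 0.01 for genes and of 0.1 for windows and exons. Inclusion rates were recomputed as the mean of both inclusion junction counts over that mean plus the skipping count, with at least 10 junction reads a library. Exonic shares were compared by exact permutation of libraries (495 arrangements, smallest p = 0.00202), from libraries with at least 10 tags on the gene. Each member was named, with its exons at 5 to 95% inclusion and its deepest CLIP position in each group, and of the other regulators the 3 with the largest called changes each way. The tests were checked on simulated data with known changes. Replicates are labelled as biological replicates. The alternatives were DESeq2 1.42.0, other scaling, filters, tag classes, thresholds, lines, barcode layouts, a replicate block and each library left out.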

Additional observations from a re-analysis of the deposited data

Results flagged for a closer look

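CPM and exonic shares were examined for a library far from the other 3 of its group, in 51 groups of 4, of which chance would mark about 1 in 20, and 4 were found. Ptbp2 was at 342 CPM in line #6 replicate 1, with the nearest of that line at 226. Rbfox3 (D11Bwg0517e) was at 346 in line #17 replicate 4, below 563 for the nearest, and at 384 in WSC replicate 1, below 408. Qk was at 1087 in line #17 replicate 4, above 563. The causes were not tested.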

How the results depend on the processing

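Depth limited the MN side, where the lowest library count of a tested gene was between 1 tag (Elavl3) and 60 tags (Mbnl2). Of the values that answer a comparison, 105 kept their direction and call or, for a count of members, stayed close to the main count. A further 31 kept the direction with a call lost or a count clearly lower, and 2 moved. A count that stayed close can still hide a lost call. The count of members higher in MN CLIP was 3 with exon tags or intron tags alone, and 3 to 4 on leaving out a library, beside 4 in the main fit. The median inclusion of the 22 entries was 97.4% with exon body reads added and 76.9% by the second junction alone, since body reads count only toward inclusion. The count of members lower in MN CLIP was 1 with exon tags, intron tags, 10 kb added downstream, line #6, line #17 or long-barcode libraries alone, and 1 to 2 on leaving out a library. The Nova2 coding share differed by -0.82 points with long-barcode libraries, and by -1.56 to -0.95 on leaving out a library. Windows higher in MN CLIP numbered 2 with at least 50 tags, 2 with flanks set against intron tags (added after the data were seen), and 2 to 5 on leaving out a library, with 2 without line #17 replicate 4.

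Subtracting the share of all genes (also added then) left 0 members with a called drop in exonic share and turned the sign for Nova2 (7.40), Ptbp2 (2.82), Rbfox3 (6.25), Mbnl1 (6.39) and Mbnl2 (21.1 points). Of the other changes of sign, that of Mbnl1, which gave 0.15 with exon tags, was in a called log2 change, and the rest were in log2 changes that were not called. Rbfox3 gave 0.17 by DESeq2, 0.012 with 10 kb added, 0.22 with line #17, and -0.092 to 0.17 on leaving out a library. Elavl4 gave -0.0059 by DESeq2, -0.0060 with its size factors, -0.18 without the filter, -0.26 with exon tags, -0.028 with line #6, and -0.015 to 0.086 on leaving out a library. Qk gave 0.25 with exon tags, 0.39 with intron tags, 0.0075 with 10 kb added, 0.0084 with line #6, 0.24 with long-barcode libraries, and -0.17 to 0.050 on leaving out a library. The Mbnl1 95-nt window gave 0.034 by DESeq2 and -0.35 to 0.065 on leaving out a library, the Mbnl2 95-nt window -0.20 with flanks against intron tags and -0.019 to 0.55, and the Ptbp2 34-nt window -0.019 with long-barcode libraries and -0.12 with flanks against intron tags. The causes were not tested.

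Replicate numbers were not taken to pair the libraries. Deviations of same-numbered libraries of the 2 lines correlated at 0.16, 0.05, 0.11 and 0.20 for replicates 1 to 4, over 0.1 in 3 of 4 pairs but not in every one, and those of a line and WSC at -0.07 to 0.03. With the replicate number as a block, 4 members were higher and 2 lower, as without it, Rbfox3 gave 0.075 and the Mbnl1 95-nt window 0.093.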
